A study of Mus musculus with 13 samples.

Results

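The comparison described here sets submandibular glands that received a control vector and were then irradiated against glands that were not irradiated. Its members were chosen by their labels alone: the 5 libraries labelled PreIR-GFP and the 3 libraries labelled NonIR, 8 of the 13 RNA sequencing libraries of the series. Per the labels, PreIR-GFP mice were injected with AAV2-GFP 10 days before irradiation of the gland. NonIR mice were not irradiated. The labels do not say whether a vector was injected in them, so vector and irradiation cannot be told apart in any value below. All mice are labelled strain CH3 and 1 year old, with tissue taken 300 days after treatment. The remaining 5 libraries, labelled PreIR-NTN, come from irradiated mice that received Cere-120, a vector that carries the growth factor neurturin. They are used here only to estimate the spread and as values set beside the others. The labels state neither the radiation dose, the sex, the time of day of tissue collection nor the promoter that drove GFP, nor whether each library is a separate animal. The p-values therefore measure the spread between these libraries, which may be technical.

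The submandibular gland is a major salivary gland. Its acinar cells make the watery, protein-rich primary saliva and release stored proteins from secretory granules when parasympathetic and sympathetic nerves stimulate them. Its ducts change the ion content of saliva, and in rodents a duct segment, the granular convoluted tubule, stores growth factors and kallikreins. Salivary glands are damaged by the radiation used against head and neck cancers, and loss of saliva can persist long after exposure. AAV2 is an adeno-associated virus used to carry genes into duct cells of the gland, and GFP, green fluorescent protein, is a reporter used as a control.

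The label and the tissue were checked before any comparison. The deposited table has an entry for an enhanced GFP transgene, and it held 0 reads in all 13 libraries, where a count of 0 allows up to 3 reads, or a level of 0.179 to 0.309 CPM without further scaling in the 5 PreIR-GFP libraries. The labels do not say which GFP sequence the vector carried, so this entry does not test the label. Defining transcripts of the tissue were abundant. Smgc, a mucin-like secreted product named for this gland, took 9.14% to 15.03% of all reads in NonIR. The acinar water channel Aqp5 stood at 155 to 199 CPM in NonIR and 134 to 269 CPM in PreIR-GFP, where CPM is the read count scaled to a common library size, here with TMM, a trimmed mean of ratios between libraries. The Y-linked genes Ddx3y, Kdm5d, Eif2s3y and Uty had 0 reads in all 8 libraries.

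PreIR-GFP 1 and PreIR-GFP 5 had the smallest shares of reads in their 10 most abundant genes. The 8 libraries held 9724301 to 16771003 reads, the fewest in PreIR-GFP 1 and the most in PreIR-GFP 4. The 10 most abundant genes took 29.7% of the reads of PreIR-GFP 1 and 37.2% of those of PreIR-GFP 5. The other 6 libraries held 43.1% to 55.5%, with PreIR-GFP 3 highest. The leading principal component held 35.9% of the variance and placed PreIR-GFP 1 farthest from the rest, at −67.4. PreIR-GFP 5, at −27.2, was not set apart there: PreIR-GFP 3 and PreIR-GFP 4 lay at 32.0 and 36.3. Scaling by total reads alone, in place of TMM, moved the median log2 fold change of all genes from 0.02 to 0.13. Several list medians and genes moved when PreIR-GFP 1, PreIR-GFP 5 or both were left out, and the larger such shifts are given below.

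**Figure D1:**
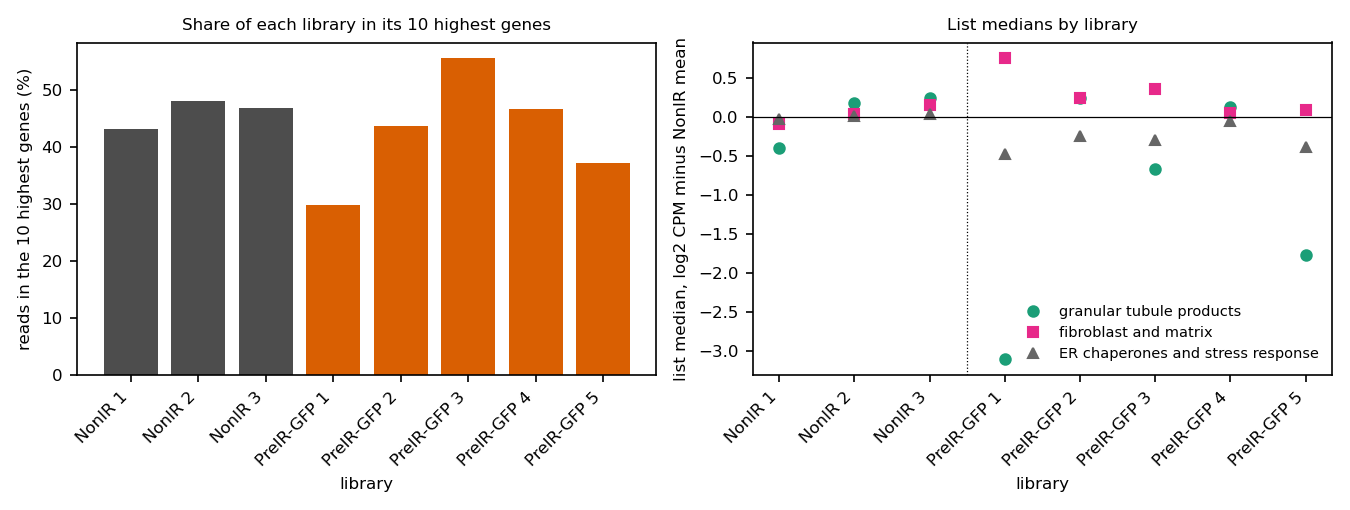
The left panel shows the share of each library's reads, in percent, that fell in its 10 most abundant genes, for 3 NonIR and 5 PreIR-GFP libraries; PreIR-GFP 1 (29.7%) and PreIR-GFP 5 (37.2%) are lowest. The right panel shows, for each library, the median over 3 gene lists of log2 CPM minus the NonIR mean; the granular tubule list lies at −3.11 in PreIR-GFP 1 and −1.77 in PreIR-GFP 5.

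Of 14727 genes tested, 5 passed an adjusted p of 0.05 between PreIR-GFP and NonIR, which is 0.0340%: Ccdc62, Tef and the unclassified transcript Gm37795 rose (0.0204%), and Rab27a and Il1rn fell (0.0136%). The test was the quasi-likelihood test of edgeR with Benjamini-Hochberg adjustment over all genes, and each of the 5 had an adjusted p of 0.0451. At an unadjusted p under 0.05 stood 1254 genes (8.51%), 761 higher and 493 lower in PreIR-GFP. Ranges of the groups did not overlap for 757 genes (5.14%), and all 5 called genes were among them.

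Rab27a encodes a small GTPase that tethers secretory granules to the cell membrane before release. It was read at 1361, 1201 and 1138 CPM in NonIR 1 to 3, and at 456, 498, 698, 756 and 659 CPM in PreIR-GFP 1 to 5. The highest PreIR-GFP library lay far below the lowest NonIR library, with 1233 ± 115 CPM (SD, n = 3) against 614 ± 130 CPM (SD, n = 5). The fitted log2 fold change was −1.01 with a standard error of 0.16, and Rab27a fell at an edgeR adjusted p of 0.0451. PreIR-NTN libraries stood at 628 to 834 CPM, also below every NonIR library. The gene lies on GRCm38 chromosome 9, from 73044854 to 73097629.

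Il1rn encodes a secreted protein that occupies the interleukin-1 receptor and blocks signalling by interleukin-1 alpha and beta. Its transcript was low: 7.66, 9.20 and 5.64 CPM in NonIR, and 3.19, 3.23, 2.03, 1.89 and 2.496 CPM in PreIR-GFP. These values come from 290 reads in NonIR and 189 reads in PreIR-GFP in all. Every PreIR-GFP library lay under every NonIR library, with 7.50 ± 1.79 CPM (SD, n = 3) in NonIR against 2.57 ± 0.629 CPM (SD, n = 5). Il1rn fell, with a log2 fold change of −1.54, a standard error of 0.25 and an edgeR adjusted p of 0.0451. The PreIR-NTN libraries, at 2.83 to 4.92 CPM, also lay under the lowest NonIR library. The gene lies on chromosome 2, from 24336853 to 24351494.

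Tef encodes a transcription factor of the PAR bZIP family whose transcript follows the circadian clock in many tissues. NonIR libraries lay close together at 19.3, 20.7 and 19.3 CPM, and PreIR-GFP libraries at 36.7, 30.0, 56.8, 41.7 and 53.5 CPM. The 2 groups did not overlap, at 19.8 ± 0.799 CPM (SD, n = 3) and 43.7 ± 11.3 CPM (SD, n = 5). Tef rose, with a log2 fold change of 1.15, a standard error of 0.19 and an edgeR adjusted p of 0.0451. Values in PreIR-NTN, 28.9 to 37.5 CPM, overlapped the lower part of the PreIR-GFP range. The gene lies on chromosome 15, from 81802421 to 81826863.

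Ccdc62 encodes a coiled-coil protein described mainly in testis. It stood at 5.27, 3.71 and 4.58 CPM in NonIR and at 10.5, 10.6, 9.38, 10.0 and 13.4 CPM in PreIR-GFP. The lowest PreIR-GFP library lay above the highest NonIR library, and PreIR-GFP 5 was highest. Ccdc62 rose, with a log2 fold change of 1.25, a standard error of 0.19 and an edgeR adjusted p of 0.0451. The 5 PreIR-NTN values ran from 9.11 to 13.03 CPM. Ccdc62 lies on chromosome 5, from 123930679 to 123969895, and shares 7710 bases with the same-strand gene model Gm43518. Rab27a and Tef share 307 and 193 bases with the processed pseudogene Gm27186 and the antisense model Gm17597. Shared bases here are those of whole gene spans, introns included. No source used here says whether the counting used strand, so reads in these stretches cannot be assigned with certainty.

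Of the 3 genes that rose, Gm37795 had the largest fold change. It was read at 37.0, 44.1 and 32.4 CPM in NonIR and at 141, 145, 99.8, 70.1 and 84.8 CPM in PreIR-GFP, from 1460 and 7888 reads in all. The groups did not overlap, and PreIR-GFP 1 and 2 were highest. Gm37795 rose, with a log2 fold change of 1.52, a standard error of 0.24 and an edgeR adjusted p of 0.0451, and PreIR-NTN stood at 99.8 to 160 CPM. GENCODE gives it 1 exon on the plus strand of chromosome 4, from 150068539 to 150070997, with no assigned function. Its first 17 bases are the last 17 bases of the hairpin of the microRNA gene Mir34a, which lies from 150068454 to 150068555 on the same strand. As background, miR-34a is a microRNA whose gene is switched on by the tumour suppressor p53, and it represses regulators of the cell cycle and of survival. The sequences from RefSeq (GRCm38.p6) are shown because they place the called transcript at this hairpin. In the hairpin, capitals mark the bases shared with Gm37795. In the mature microRNA, capitals mark the seed, bases 2 to 8, with which it recognises target transcripts.
Mir34a hairpin, chr4:150068454-150068555, plus strand: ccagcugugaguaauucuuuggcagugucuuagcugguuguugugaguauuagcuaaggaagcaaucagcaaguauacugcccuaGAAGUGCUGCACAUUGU
mmu-miR-34a-5p, chr4:150068473-150068494, plus strand: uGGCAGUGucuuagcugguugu

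The mature microRNA lies outside the shared bases, and these libraries did not measure small RNAs. The Mir34a entry itself held 1 read in NonIR and 0 in PreIR-GFP, so reads of Gm37795 are not a measure of miR-34a. Annotated neighbours within 100000 bases were examined after the value of Gm37795 was seen. Upstream, the long noncoding RNA Gm13067 had 0 reads in all 8 libraries, and H6pd, an enzyme of the endoplasmic reticulum, stood at −0.11 (edgeR adjusted p = 0.927). Downstream on the same strand lay the orphan receptor gene Gpr157. It held 5, 0 and 1 reads in NonIR and 5, 6, 8, 3 and 7 reads in PreIR-GFP, and was not tested. In CPM, every PreIR-GFP library but PreIR-GFP 4 lay above every NonIR library, at very low counts. The fructose transporter Slc2a5 stood at 0.01 (edgeR adjusted p = 0.997). The higher count of Gm37795 was thus not shared by H6pd and Slc2a5, the tested genes on either side.

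**Figure D2:**
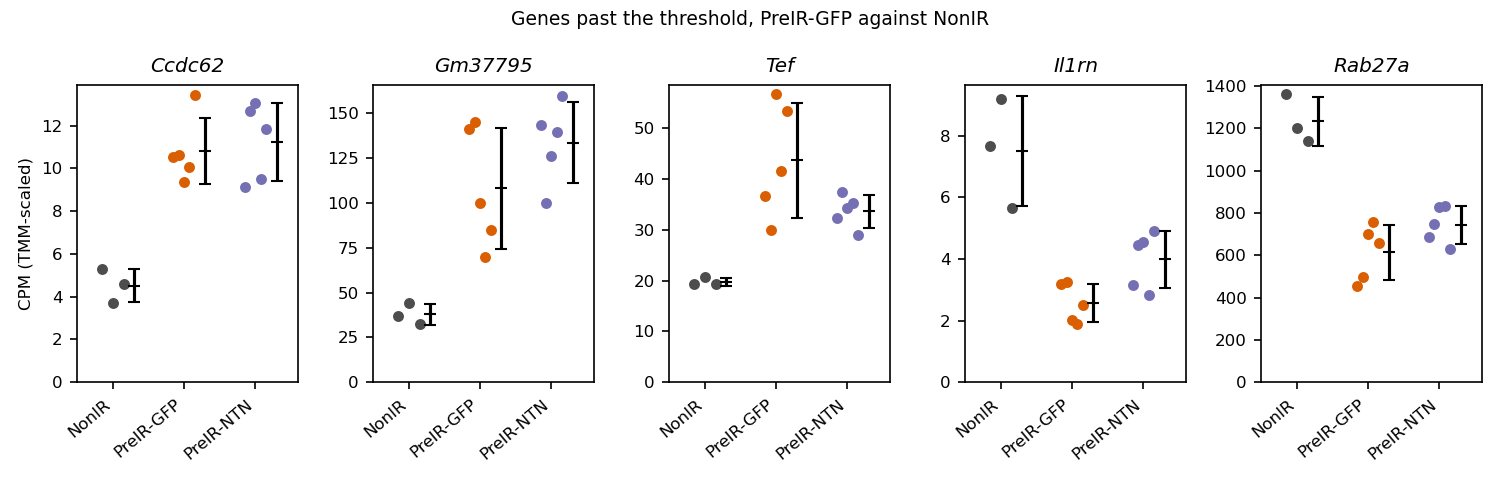
Each panel shows 1 of the 5 genes past the threshold, with CPM of each library as a point and the mean ± SD beside it, for NonIR (n = 3), PreIR-GFP (n = 5) and PreIR-NTN (n = 5). In each panel the PreIR-GFP points do not overlap the NonIR points: Rab27a lies at 456 to 756 CPM against 1138 to 1361 CPM.

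The 5 calls sat close to the threshold. Each of the 5 kept its direction under all 24 alternatives. Leaving out a library could hardly reverse it, since the groups of these genes did not overlap. The adjusted p of Tef, however, ran from 4.92e-05 (DESeq2) to 0.449 and that of Rab27a from 6.35e-05 (DESeq2) to 0.517. The same edgeR test called 0 genes when any 1 of NonIR 1 to 3, PreIR-GFP 3, PreIR-GFP 5 or the 5 PreIR-NTN libraries was left out, 14 without PreIR-GFP 1, 6 without PreIR-GFP 4, and 1 without PreIR-GFP 2.

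Just outside the threshold, 20 genes were named by rule, the 10 higher and the 10 lower with the lowest p among genes whose groups did not overlap (2.87% of all genes tested higher, 2.27% lower). None passed the edgeR test, and their values are descriptions. Of these genes and the 5 called, 14 of 25 share bases with another annotated gene.

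On the lower side, Zdhhc2, a palmitoyltransferase that attaches lipid to membrane proteins, stood at 45.03, 44.3 and 37.3 CPM in NonIR and 25.7, 20.9, 23.3, 23.6 and 20.1 CPM in PreIR-GFP (log2 fold change −0.89, edgeR adjusted p = 0.0525). Tbx3, a T-box transcription factor of duct and other epithelia, stood at 127 ± 26.3 and 73.4 ± 9.53 CPM (−0.79, adjusted p = 0.0779). Tex2, a lipid transfer protein of membrane contact sites, was abundant, at 659 ± 75.3 and 362 ± 84.3 CPM (−0.86, adjusted p = 0.102). Spata13, which loads small GTPases with GTP, stood at −0.80, Arl4a, a small GTPase of membrane traffic, at −0.63, and Mrfap1 at −0.67. Low-abundance genes on this side were Clic6, a chloride channel family member (10.3 ± 1.77 and 4.63 ± 1.34 CPM, −1.16), and Scrn1, a secernin (4.14 ± 1.47 and 1.25 ± 0.533 CPM, −1.71). Dpysl3, a cytoskeletal regulator of neurons and other cells, stood at −0.66. Vwf, the clotting factor stored in endothelial cells, stood at 9.65, 21.5 and 11.3 CPM against 4.72 to 7.19 CPM (−1.27, adjusted p = 0.121, −0.84 without NonIR 2).

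On the higher side, Cpt1c, a carnitine palmitoyltransferase mostly of neurons, stood at 4.18 ± 0.251 and 11.4 ± 4.32 CPM (1.45, edgeR adjusted p = 0.0989). Senp3, a SUMO protease of the nucleolus, had 48.6 ± 4.72 and 84.2 ± 7.75 CPM (0.79, adjusted p = 0.0989). Nol9, a kinase of ribosomal RNA processing, had 19.2 ± 2.34 and 31.9 ± 4.43 CPM (0.74, adjusted p = 0.177). Ywhab, a 14-3-3 adaptor protein, and the zinc finger gene Zfp263 were abundant, at 0.69 and 0.60. Further genes named here were Gucy1a1, a subunit of the nitric oxide receptor guanylate cyclase (1.56), Slc24a3, a sodium-calcium exchanger (0.98), Tmcc1 (0.82) and the clock kinase gene Csnk1e (0.89).

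The remaining account goes by gene lists, which were chosen with earlier results of these data known. Each list is described by how many of its tested members stood above or below 0 and by its median log2 fold change. Over all 14727 genes tested, 52.7% stood above 0 and 47.3% below, the median was 0.02, and at an unadjusted p under 0.05 stood 5.17% higher and 3.35% lower. In RNA from a whole gland, fewer cells of a type and less RNA per cell cannot be told apart.

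**Figure D3:**
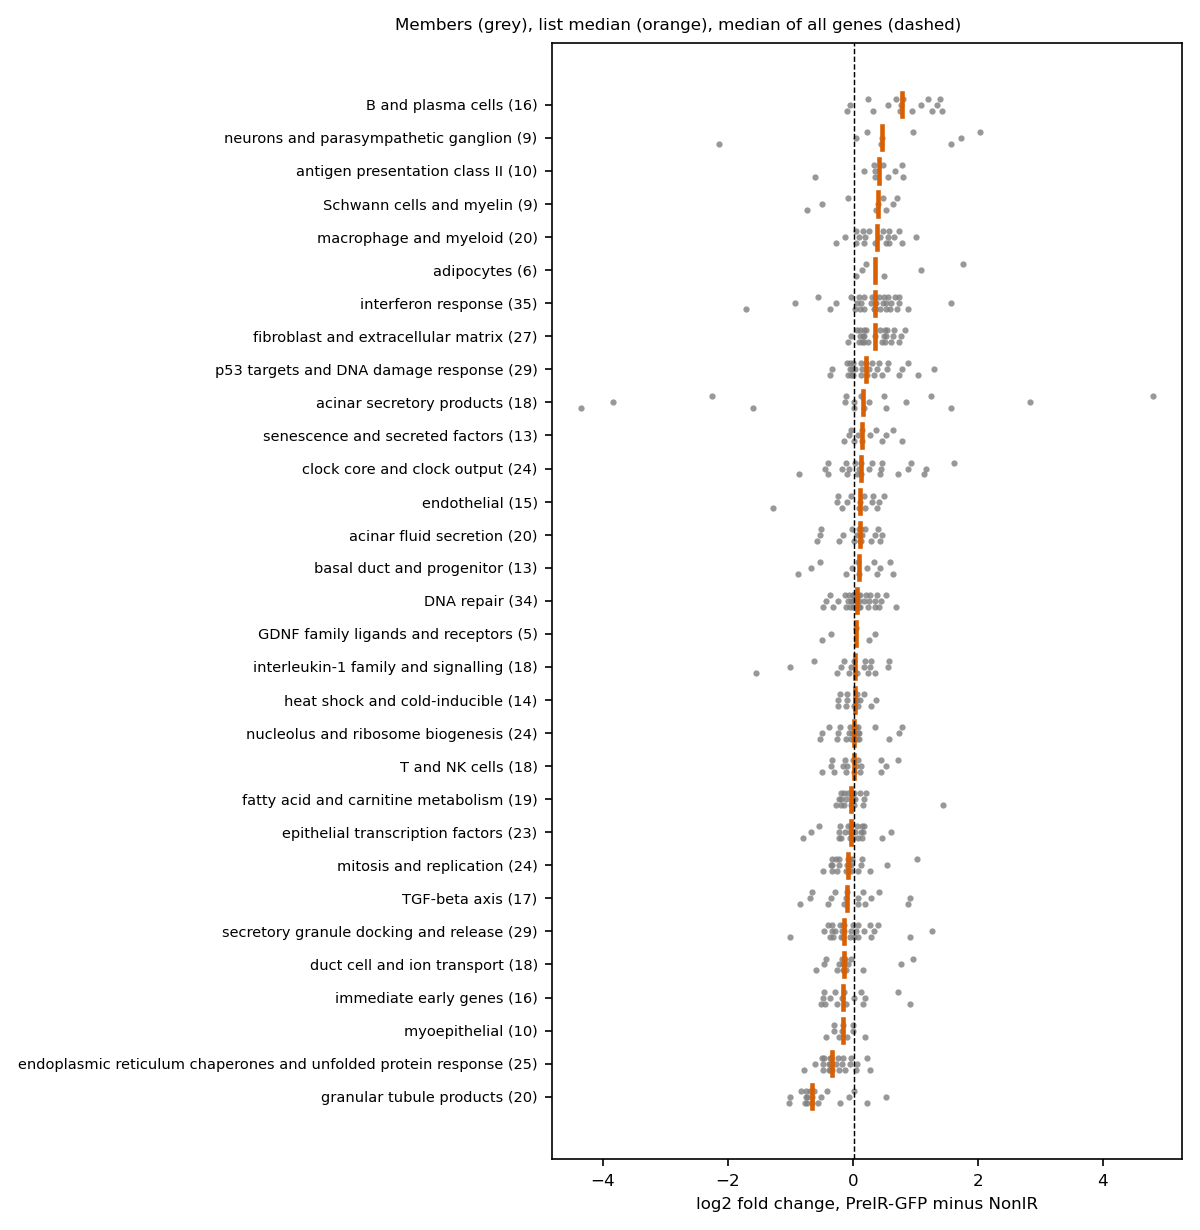
Grey points are members of each gene list with at least 5 members tested, placed by log2 fold change of PreIR-GFP against NonIR, with the number tested in brackets; orange bars are list medians and the dashed line is the median of all genes, 0.02. List medians run from −0.65 for granular tubule products to 0.79 for B and plasma cells.

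The circadian clock is a feedback loop of transcription. The activators Clock and Arntl drive the genes of the repressors Per and Cry and of the output factors Tef, Dbp and Hlf through E-box sequences. Those output factors bind D-box sequences, and the receptors Nr1d1, Nr1d2 and Rora act on Arntl itself. Of 24 clock genes tested, 16 stood above 0 and 8 below, with a median of 0.14, and 5 higher and 2 lower had an unadjusted p under 0.05. Tef was the 1 member that passed the adjusted test. Per-library list medians were −0.02 to 0.03 in NonIR and 0.08 to 0.27 in PreIR-GFP.

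Among output genes, Dbp was scarce, at 0.342, 0.591 and 0.0817 CPM in NonIR and 1.23, 0.396, 1.25, 1.01 and 1.37 CPM in PreIR-GFP (1.62, edgeR adjusted p = 0.415), with PreIR-GFP 2 inside the NonIR range. Hlf stood at −0.10. The repressor Per3 stood at 3.70, 4.30 and 4.25 CPM in NonIR and 11.9, 6.20, 6.57, 7.69 and 13.7 CPM in PreIR-GFP (1.18, adjusted p = 0.251). Its groups did not overlap, and PreIR-NTN stood at 5.93 ± 1.69 CPM (SD, n = 5). Per2 stood at 0.93 (0.47 without PreIR-GFP 1, and 0.22 without PreIR-GFP 1 and 5), Per1 at 0.46, Cry2 at 0.44 and Cry1 at −0.40. The activator Arntl stood at 28.7, 18.9 and 31.9 CPM in NonIR and 15.2, 21.8, 13.8, 9.58 and 12.2 CPM in PreIR-GFP (−0.87, adjusted p = 0.244). NonIR 2 lay inside the PreIR-GFP range of Arntl. Its partner Clock stood at 0.07. Nr1d1 and Nr1d2, repressors of Arntl, stood at 0.45 and 0.30. The kinase gene Csnk1e, whose product marks Per proteins for degradation, stood at 0.89 without overlap, and its relative Csnk1d at −0.06. Tef, Per3 and Arntl thus differed in opposite directions, and of the 3 only Tef passed the test. The part of the time of day of collection in these values was not tested, since no label states it.

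**Figure D4:**
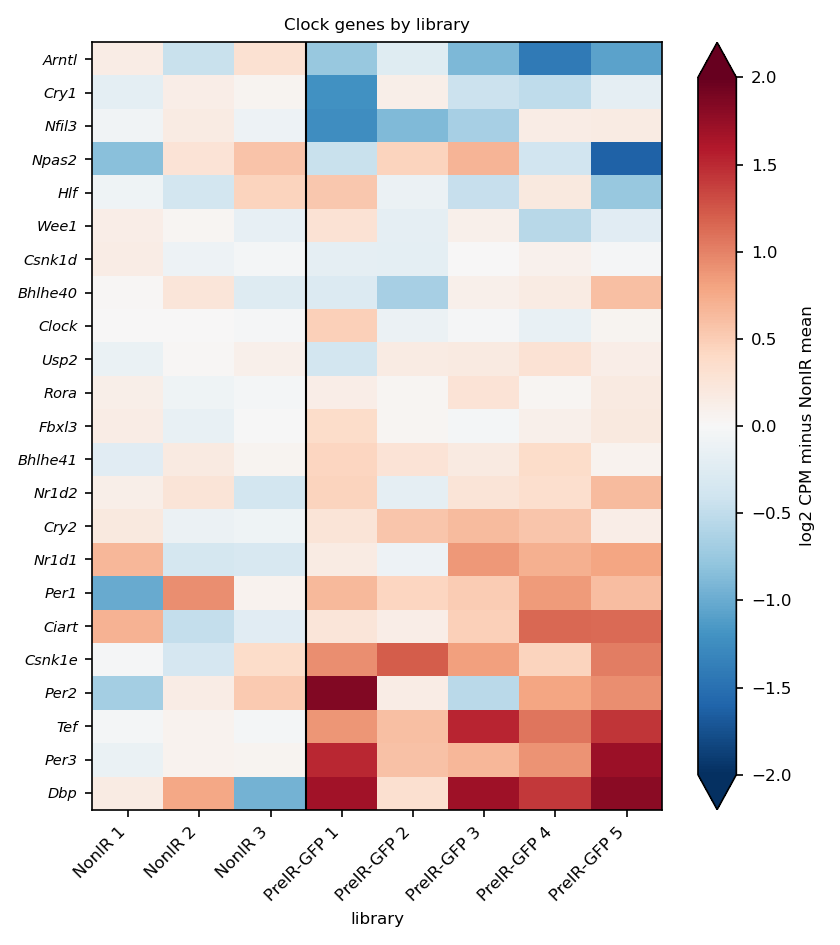
Each cell of the map shows log2 CPM of a clock gene in a library minus the NonIR mean, with colours capped at 2 and −2, for 3 NonIR and 5 PreIR-GFP libraries (black line between groups). Rows are ordered by log2 fold change, from Arntl (−0.87) at the top to Tef (1.15), Per3 (1.18) and Dbp (1.62) at the bottom.

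The 250 bases before the first RefSeq start site (GRCm38.p6) were available for 18 of these clock genes and were searched on both strands for an E-box (CACGTG), a D-box (TTANGTAA) and the ROR element (AANTN followed directly by GGTCA). E-boxes lay in 5 of the 18 (27.8%, against 6.04% of 27025 genes), those of Tef, Per1, Cry1, Bhlhe41 and Ciart. A D-box lay in 1 of the 18 (5.56%, against 2.11% of all), Per3, and the ROR element in 0 of 18 (0.511% of all). RefSeq and GENCODE can place a start differently: the stretch printed for Tef lies before its RefSeq start but inside the GENCODE gene given above. A match is a description of the letters and says nothing on binding here. The promoters of Tef and Per3 are shown because both genes stood higher in every PreIR-GFP library and they carry different elements, in capitals. The E-box of Tef begins 127 bases before its start, and the D-boxes of Per3 begin 205 and 158 bases before its start.
Tef, chr15:81802423-81802672, plus strand: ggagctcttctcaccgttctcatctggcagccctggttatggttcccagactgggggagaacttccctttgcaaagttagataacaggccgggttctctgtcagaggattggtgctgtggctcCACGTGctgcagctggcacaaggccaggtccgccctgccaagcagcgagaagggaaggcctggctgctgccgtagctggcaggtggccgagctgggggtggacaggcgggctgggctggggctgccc
Per3, chr4:151044666-151044915, minus strand: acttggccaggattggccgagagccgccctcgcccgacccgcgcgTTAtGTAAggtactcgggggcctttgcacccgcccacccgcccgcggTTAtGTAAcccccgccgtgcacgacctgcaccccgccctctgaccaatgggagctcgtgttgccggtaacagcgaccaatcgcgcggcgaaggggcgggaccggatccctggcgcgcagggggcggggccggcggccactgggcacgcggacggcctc

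Granule release in acinar and duct cells uses Rab GTPases that tether granules, effectors that link them to the membrane or to myosin motors, and SNARE proteins that fuse the membranes. Of 29 tested genes of this machinery, 12 stood above 0 and 17 below, with a median of −0.13. Unadjusted p was under 0.05 for 2 higher and 5 lower members. Rab27a was the 1 member that passed the adjusted test, and its paralog Rab27b stood at −0.34 (edgeR adjusted p = 0.531). Snap23, a SNARE of the target membrane, stood at 56.2, 57.2 and 54.6 CPM in NonIR and 35.8, 41.4, 44.3, 43.9 and 37.6 CPM in PreIR-GFP, without overlap (−0.46, adjusted p = 0.252). Rph3al, a Rab effector of exocytosis also called Noc2, stood at −0.36 and the recycling GTPase Rab11a at −0.28, both without overlap. Myo5a, a myosin motor that carries granules, stood at 1.82 ± 0.496 and 3.42 ± 0.665 CPM (0.91, adjusted p = 0.392), and the SNARE Vamp3 at 0.29. Of the other effectors and fusion genes, Sytl4 stood at −0.31, Rab26 at −0.34, Rab3d at 0.08, Vamp8 at 0.09 and Stxbp2 at 0.00. Apart from Rab27a, the negative values of this list ran down to the −0.46 of Snap23. The positive values ran up to 1.27, and no positive member passed the adjusted test.

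Secretory cells fold their exported proteins in the endoplasmic reticulum. Chaperones (Hspa5, Hsp90b1, Calr, Canx), disulphide isomerases (the Pdia genes, P4hb) and degradation factors (Edem1, Sel1l, Herpud1) do this work, and the sensors Atf6, Ern1 and Eif2ak3 adjust it in the unfolded protein response. Of 25 such genes tested, 21 stood below 0 and 4 above, with a median of −0.34. Unadjusted p was under 0.05 for 11 lower members and 0 higher ones, and 5 lower members did not overlap between groups. Over all genes tested, 3.35% were lower at an unadjusted p under 0.05 and 2.27% were lower without overlap. No member of the list passed the adjusted test. Under the 24 alternatives the list median ran from −0.37 (without PreIR-GFP 4) to −0.22 (scaling by total reads alone), where 2 members in place of 11 had an unadjusted p under 0.05.

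Edem1, which removes misfolded glycoproteins for degradation, stood at 68.3, 71.6 and 57.0 CPM in NonIR and 53.1, 34.97, 32.3, 42.1 and 28.1 CPM in PreIR-GFP (−0.78, edgeR adjusted p = 0.190). Dnajc3, a co-chaperone that also inhibits Eif2ak3, stood at 267, 228 and 222 CPM and at 154, 182, 159, 202 and 165 CPM (−0.47, adjusted p = 0.252). Hsp90b1, the chaperone Grp94, stood at 394, 571 and 461 CPM and at 368, 332, 281, 379 and 330 CPM (−0.49, adjusted p = 0.324). In all 3 genes every PreIR-GFP library lay under every NonIR library. Calr, the lectin chaperone calreticulin, and Pdia4 also did not overlap, at −0.38 and −0.35. Hspa5, the central chaperone BiP, stood at 576, 559 and 623 CPM and at 421, 449, 453, 561 and 435 CPM (−0.34, adjusted p = 0.473), where PreIR-GFP 4 reached the NonIR range. Canx, Pdia3, Pdia6, Dnajb9 and Sel1l stood between −0.48 and −0.36. The stress transcription factors did not share this: Xbp1 stood at −0.04, Ddit3 at 0.06 and Atf4 at 0.22. The sensors Atf6, Ern1 and Eif2ak3 stood at −0.24, −0.15 and 0.05, and Herpud1 at 0.28.

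By library, the list median was −0.02 to 0.04 in NonIR, and −0.48, −0.25, −0.30, −0.05 and −0.39 in PreIR-GFP 1 to 5. The most negative values were those of PreIR-GFP 1 and 5, in which the 10 most abundant genes took the smallest share of reads, and the part of that share in these values was not tested. Without those 2 libraries the list median was −0.24, with 20 of 25 members below 0. PreIR-NTN levels lay near those of PreIR-GFP, at 36.6 ± 3.68 CPM for Edem1 and 171 ± 12.9 CPM for Dnajc3 (SD, n = 5).

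**Figure D5:**
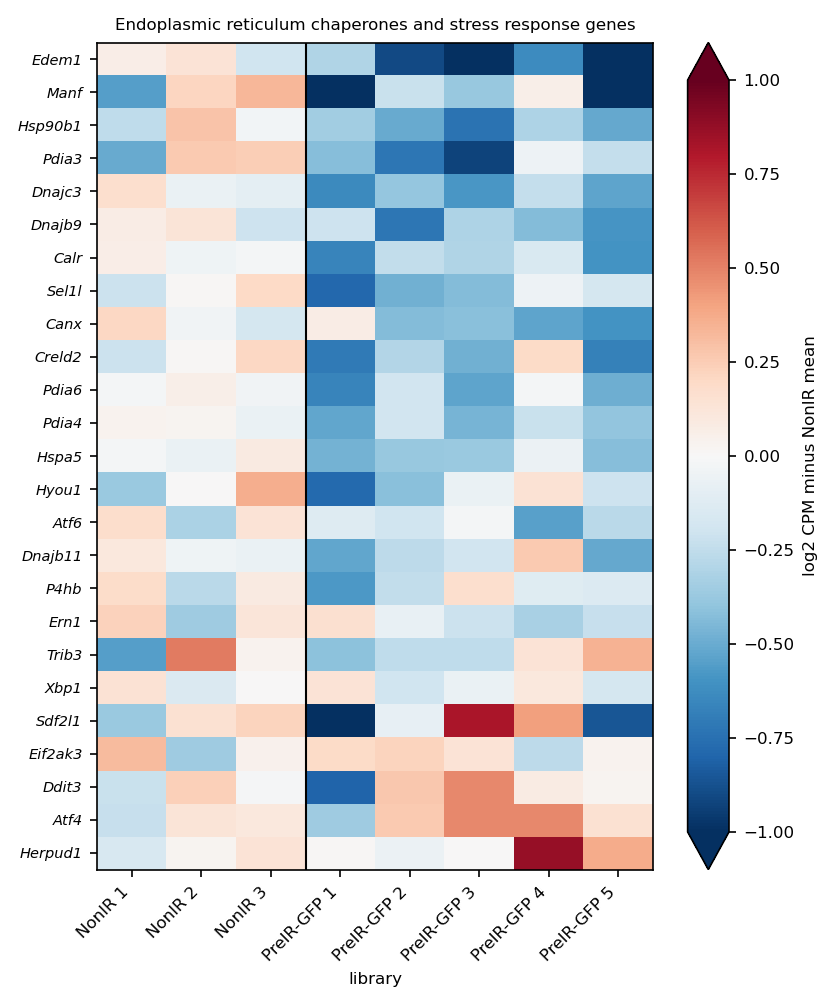
Each cell of the map shows log2 CPM of an endoplasmic reticulum gene in a library minus the NonIR mean, with colours capped at 1 and −1, for 3 NonIR and 5 PreIR-GFP libraries (black line between groups). From Edem1 to Hspa5, PreIR-GFP cells are mostly blue, with exceptions in PreIR-GFP 4 (Manf, Creld2) and PreIR-GFP 1 (Canx), while Atf4 (0.22) and Herpud1 (0.28) at the bottom are above 0 in the group.

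Many chaperone genes of this compartment carry the endoplasmic reticulum stress element, ERSE, which is CCAAT, then 9 bases of any kind, then CCACG. A search of both strands of the 250 bases before the start found it in 7 of 22 list members (31.8%), and in 33 of 27025 genes (0.122%). As the list was made up of such genes, a high share was built in. A match describes the letters and says nothing on binding or on the fold changes here. The 7 were Hspa5, Hsp90b1, Calr, Canx, Pdia6, Dnajc3 and Creld2, at log2 fold changes of −0.34, −0.49, −0.38, −0.37, −0.36, −0.47 and −0.36. Edem1, the member with the lowest p, had no match in this window. Nor did Pdia3, Dnajb9, Sel1l and Pdia4, at −0.48, −0.46, −0.37 and −0.35. Xbp1, Ddit3, Atf4, Ern1 and Eif2ak3, with smaller fold changes given above, were also among those without a match. The shorter ERSE-II (ATTGG, 1 base of any kind, then CCACG) lay in Herpud1 alone of the list, the member with the highest value (0.28), and in 0.0333% of all genes. The promoters of 4 of the 7 are shown because their spacing shows the element as it stands in genes of this list. Capitals mark its fixed letters, which read CGTGG and ATTGG on the other strand. Starts are those of RefSeq, and the GENCODE genes of Hspa5, Hsp90b1 and Calr reach into the stretches printed. The element begins 65 bases before the start in Hspa5, 212 and 107 in Hsp90b1, 162 in Calr and 105 in Dnajc3.
Hspa5, chr2:34771840-34772089, plus strand: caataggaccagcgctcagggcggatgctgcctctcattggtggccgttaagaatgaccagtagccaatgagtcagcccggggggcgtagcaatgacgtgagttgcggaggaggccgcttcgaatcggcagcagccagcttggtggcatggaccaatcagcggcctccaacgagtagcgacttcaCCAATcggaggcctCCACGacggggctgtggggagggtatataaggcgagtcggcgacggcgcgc
Hsp90b1, chr10:86705445-86705694, minus strand: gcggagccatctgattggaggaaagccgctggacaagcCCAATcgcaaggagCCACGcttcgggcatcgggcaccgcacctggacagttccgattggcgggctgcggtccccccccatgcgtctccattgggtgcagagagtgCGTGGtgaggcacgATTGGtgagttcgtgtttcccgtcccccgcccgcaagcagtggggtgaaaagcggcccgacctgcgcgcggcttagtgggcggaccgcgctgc
Calr, chr8:84846932-84847181, minus strand: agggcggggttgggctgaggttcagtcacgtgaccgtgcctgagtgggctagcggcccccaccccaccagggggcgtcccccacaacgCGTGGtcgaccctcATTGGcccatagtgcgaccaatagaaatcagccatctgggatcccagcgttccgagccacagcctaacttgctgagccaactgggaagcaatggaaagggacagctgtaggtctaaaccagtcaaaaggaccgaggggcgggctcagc
Dnajc3, chr14:118937682-118937931, plus strand: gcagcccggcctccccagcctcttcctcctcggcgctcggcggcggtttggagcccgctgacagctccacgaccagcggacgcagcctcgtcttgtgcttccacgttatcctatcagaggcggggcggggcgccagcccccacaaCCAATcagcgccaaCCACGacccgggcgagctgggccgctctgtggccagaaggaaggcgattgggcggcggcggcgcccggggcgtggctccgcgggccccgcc

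Of 18 acinar secretory products tested, 12 stood above 0 and 6 below, with a median of 0.16 that was 0.45 without PreIR-GFP 1 and 5. Unadjusted p was under 0.05 for 1 higher and 4 lower members (Smgc, Amy1, Smr3a and Cst10), and none passed the adjusted test. Smgc was put in this list as a product of the gland, and which of its cells made it was not tested. Smgc stood at 98019, 160645 and 98751 CPM in NonIR and 17060, 37906, 45704, 57156 and 39262 CPM in PreIR-GFP, without overlap (−1.60, SE 0.49, edgeR adjusted p = 0.398). Its spread was wide in PreIR-NTN, at 78662 ± 44157 CPM (SD, n = 5). Bpifa2, parotid secretory protein, lay the other way and also without overlap, at 10247, 12499 and 18255 CPM in NonIR and 20380 to 31507 CPM in PreIR-GFP (0.85, adjusted p = 0.513). Several other values depended on single libraries. Amylase Amy1 stood at 32.2, 68.6 and 273 CPM in NonIR and 12.5 to 38.5 CPM in PreIR-GFP (−2.26, and −0.95 without NonIR 3). Smr3a and Cst10 reached 29.5 and 21.6 CPM in NonIR 3 and stood at most at 1.95 and 2.502 CPM in PreIR-GFP (−4.35 and −3.83, and −1.58 and −1.71 without NonIR 3). The largest positive value of the list was that of the proline-rich protein gene Prh1, at 4.81 (edgeR adjusted p = 0.665). Bhlha15, the Mist1 factor that keeps acinar cells mature, stood at 0.13.

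Granular tubule products had the lowest list median, −0.65, with 17 of 20 members below 0 and 1 at an unadjusted p under 0.05. Their level split the PreIR-GFP libraries: the list median per library was −3.11 in PreIR-GFP 1, −1.77 in PreIR-GFP 5 and −0.67 in PreIR-GFP 3, but 0.25 and 0.13 in PreIR-GFP 2 and 4, as in NonIR (−0.40 to 0.24). Without PreIR-GFP 1 and 5 the list median was −0.09, with 12 of 20 members below 0. As those were the lowest libraries of the group in this list, a rise on leaving them out was built in. Egf, epidermal growth factor, stood at 962, 1493 and 1419 CPM in NonIR and 214, 887, 405, 1336 and 385 CPM in PreIR-GFP (−1.001, edgeR adjusted p = 0.633, and −0.57 without PreIR-GFP 1 and 5). Crisp3, a cysteine-rich secretory protein, stood at −0.75 (adjusted p = 0.392) and renin Ren1 at −0.73. Tissue kallikrein Klk1 lay the other way, at 0.54. The kallikrein genes are near-identical copies, and no source used here says how the counting split reads between them.

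Fluid secretion by acinar cells starts with receptors, passes through calcium release and ends with channels and pumps. Of 20 genes tested, 14 stood above 0 and 6 below, with a median of 0.11, and none passed the adjusted test. Among receptors, the muscarinic receptor Chrm1 stood at −0.53 and the adrenergic receptor Adra1a at −0.50, whereas Chrm3, the main muscarinic receptor of acinar cells, was scarce, at 2.67 to 4.14 CPM in NonIR and 2.32 to 3.91 CPM in PreIR-GFP. The calcium release channel Itpr2 stood at 55.5 ± 2.01 and 76.9 ± 13.8 CPM without overlap (0.47, edgeR adjusted p = 0.376). The chloride channel Ano1 stood at 0.14, the chloride cotransporter Slc12a2 at 0.11 and Aqp5 at 0.15.

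Duct and ion transport genes stood below 0 in 15 of 18 cases, with a median of −0.14, and in 11 of 18, with a median of −0.03, with scaling by total reads alone. The sodium channel subunit Scnn1b stood at −0.58 (edgeR adjusted p = 0.505) and Scnn1g at −0.46, while Ascl3, a factor of ionocyte-like duct cells, stood at 0.97 and the bicarbonate cotransporter Slc4a4 at 0.77. Duct keratins Krt7, Krt8, Krt18 and Krt19 lay between −0.15 and −0.13. Of 13 basal and progenitor genes, 8 stood above 0. The basal keratins Krt5 and Krt14 stood at −0.01 and −0.11, Sox10 at 0.65, Prom1 at −0.52 and Sox9 at −0.67. Sox9, a factor of ducts and progenitors, was at 89.6 CPM in PreIR-GFP 1 and 37.2 to 48.2 CPM in the other PreIR-GFP libraries, against 66.4 to 91.0 CPM in NonIR, and stood at −0.98 without PreIR-GFP 1, where it passed the edgeR test. Of 10 myoepithelial genes, 7 stood below 0, with smooth muscle actin Acta2 at −0.17 and calponin Cnn1 at −0.30. Among 23 epithelial transcription factors, the median was −0.03, with Tbx3 at −0.79, Spdef at 0.61 and the oestrogen receptor Esr1 at −0.53.

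The macrophage and myeloid list stood above 0 in 18 of 20 members, with a median of 0.39 and 4 higher at an unadjusted p under 0.05. Its per-library medians did not overlap, at −0.09 to 0.03 in NonIR and 0.22 to 0.49 in PreIR-GFP. These are taken against the NonIR mean, which draws NonIR libraries together, and the clock, duct and endoplasmic reticulum lists did not overlap either. The summed level of the macrophage list did overlap, at 264 to 281 CPM in NonIR and 276 to 373 CPM in PreIR-GFP. Trem2, a lipid receptor of macrophages, stood at 1.71, 1.86 and 2.21 CPM in NonIR and 3.34, 4.16, 3.13, 3.30 and 2.62 CPM in PreIR-GFP (0.78, edgeR adjusted p = 0.374). Mrc1, the mannose receptor, stood at 0.74 and lysozyme Lyz2 at 0.67, and without PreIR-GFP 1 and 5 at 0.32 and 0.21. Adgre1, the F4/80 antigen, was at 52.9 CPM in PreIR-GFP 5 and 12.8 to 15.2 CPM in the other PreIR-GFP libraries (1.01, and 0.36 without PreIR-GFP 5). Complement genes C1qa, C1qb and C1qc stood at −0.13, 0.05 and 0.26, and the growth factor receptor Csf1r at 0.10.

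B and plasma cell genes stood above 0 in 14 of 16 cases, with a median of 0.79. PreIR-GFP 5 carried much of this, with a list median of 1.73 against −0.04 to 0.91 in the other PreIR-GFP libraries, and the group value without it was 0.33. Cd79a, a chain of the B cell receptor, stood at 0.753 to 1.10 CPM in NonIR and 2.10, 1.78, 1.33, 1.01 and 4.40 CPM in PreIR-GFP (1.27, edgeR adjusted p = 0.496). The joining chain Jchain stood at 1.43, the IgA heavy chain Igha at 1.34, and Pigr, which carries IgA into saliva, at −0.09. In the same library, the B cell attractant Cxcl13 was at 4.81 CPM and Ccr7, a receptor of lymph node homing, at 4.22 CPM, against at most 1.25 and 0.607 CPM in the other PreIR-GFP libraries. Of the 8 lymph node genes listed, Ccr7 was the 1 that passed the filter, and their summed level was 12.8 CPM in the highest PreIR-GFP library against 1.55 to 2.36 CPM in NonIR. The part of lymphoid tissue in the B cell values was not tested. T and NK cell genes split evenly, 10 above and 8 below 0, with a median of 0.01 that turned negative in 10 of the 24 alternatives.

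Class II antigen presentation stood above 0 in 9 of 10 members (median 0.42) and interferon response genes in 29 of 35 (median 0.35), with PreIR-GFP 4 highest in both, at 1.38 and 1.23. Without PreIR-GFP 4 these medians were 0.08 and 0.04. The RNA sensor Ddx58 stood at 81.9 ± 9.67 and 125 ± 23.4 CPM (0.61, edgeR adjusted p = 0.290), Mx2 at 0.53 and Oas2 at 1.58, of which PreIR-GFP 2 held 44.3 CPM and PreIR-GFP 3 held 5.86 CPM. The chemokine Cxcl10 lay the other way (−1.71, and −0.47 without NonIR 2). In the interleukin-1 family, Il1rn was the 1 of 18 tested members that passed the adjusted test. The decoy receptor Il1r2 stood at −0.9999 and the receptor kinase Irak1 at 0.59 without overlap (adjusted p = 0.271), while the receptor Il1r1 stood at 0.25, its partner Il1rap at −0.04 and Il18 at −0.62. The ligands Il1a and Il1b did not pass the filter on low counts.

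Stromal genes stood above 0 in 25 of 27 cases, with a median of 0.35 and 5 at an unadjusted p under 0.05. The list median was 0.76 in PreIR-GFP 1 and 0.05 to 0.36 in the other PreIR-GFP libraries, and without PreIR-GFP 1 the group value was 0.18 with 19 of 27 above 0. Sparc, a matrix glycoprotein, stood at 0.50 (edgeR adjusted p = 0.484), the basement membrane collagen Col15a1 at 0.84, the gelatinase Mmp2 at 0.62, vimentin at 0.54 and the microfibril gene Fbn1 at 0.73 (0.30 without PreIR-GFP 1 and 5). The fibrillar collagens that mark scarring lay near 0: Col1a1 stood at 0.12, Col1a2 at 0.18 and Col3a1 at 0.07. The TGF-beta axis, a main driver of matrix genes, split into 8 above and 9 below 0, with a median of −0.10 that was −0.28 without PreIR-GFP 1 and 5 and 0.09 with scaling by total reads alone. The ligand Tgfb1 stood at 0.09. Members that stood lower without overlap were the ligand Tgfb2, at 41.3 ± 2.99 and 26.4 ± 7.58 CPM (−0.65, adjusted p = 0.374), and the latency genes Ltbp1, at 80.5 ± 16.3 and 44.6 ± 10.4 CPM (−0.85, adjusted p = 0.314) and Ltbp4, at −0.35. Signalling genes differed among themselves: the effector Smad3 stood at 5.68 ± 2.54 and 10.6 ± 1.15 CPM without overlap (0.89, adjusted p = 0.333) and the inhibitor Smad7 at −0.68. Endothelial genes apart from Vwf lay between −0.25 and 0.50, with Pecam1 at 0.12 and Cdh5 at −0.03.

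Nerve genes were mostly too scarce to test: 9 of 22 neuronal genes passed the filter, and those of acetylcholine synthesis and transport, Chat, Slc18a3 and Slc5a7, did not. Of the 9 tested, 8 stood above 0, with a median of 0.46 (0.11 without NonIR 2). The 1 below 0, Slitrk4, a neuronal adhesion protein, stood at 0.684 to 1.10 CPM in NonIR and 0 to 0.330 CPM in PreIR-GFP (−2.13, edgeR adjusted p = 0.294). Gap43, a protein of growing axons, stood at 2.04 (adjusted p = 0.564), with 2.18 CPM in PreIR-GFP 1. Of 9 Schwann cell and myelin genes, 6 stood above 0 (median 0.41, and 0.00 without PreIR-GFP 1 and 5). Mbp, myelin basic protein, stood at 0.37 without overlap, Pmp22 at 0.49 and Ncam1 at −0.49 without overlap. Nrtn, neurturin itself, stood at 2.33 to 7.11 CPM in NonIR and 2.496 to 10.9 CPM in PreIR-GFP. Its receptor Gfra2 stood at 0.27 and Ret at 0.05.

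The p53 pathway answers DNA damage with cell cycle arrest, repair or cell death. Of 29 of its target and partner genes tested, 21 stood above 0 and 8 below, with a median of 0.22 (0.11 without PreIR-GFP 1). Unadjusted p was under 0.05 for 5 higher and 1 lower member, and none passed the adjusted test. The summed level of the list leaned the other way with overlap, at 776 to 1011 CPM in NonIR and 644 to 923 CPM in PreIR-GFP. Gdf15, a stress cytokine, stood at 0.342, 0.506 and 0.245 CPM in NonIR and 0.653, 1.12, 1.09, 0.877 and 0.773 CPM in PreIR-GFP, without overlap (1.29, edgeR adjusted p = 0.422). The cell death gene Bbc3 stood at 0.88, the phosphatase Ppm1d at 0.42 and the death receptor Eda2r at 0.56. Cdkn1a, the arrest protein p21, stood at 8.08, 12.4 and 11.9 CPM in NonIR and 18.9, 31.8, 19.2, 11.5 and 11.9 CPM in PreIR-GFP, so that PreIR-GFP 4 and 5 lay inside the NonIR range (0.79, adjusted p = 0.649). Mdm2, Ccng1 and Trp53 itself stood at −0.04, 0.15 and −0.09, and Perp at −0.34. The list median per library was 0.38 in PreIR-GFP 1, 0.50 in PreIR-GFP 2 and −0.01 to 0.18 in the other 3. Gm37795, the transcript at the Mir34a hairpin, was highest in the same 2 libraries, at 141 and 145 CPM, a description over 5 libraries with no test. Medians of the senescence list (0.58 and 0.36) and the basal duct and progenitor list (0.15 and 0.16) were also highest in PreIR-GFP 1 and 2. The ranking is thus not particular to p53 targets.

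DNA repair genes had a median of 0.07, with Lig4, the ligase of end joining, at −0.48 without overlap and Xpa, of excision repair, at 0.69. Mitosis and replication genes stood below 0 in 18 of 24 cases (median −0.07, and 0.21 without NonIR 2), with Mki67 at −0.07, and the senescence list had a median of 0.15 (−0.03 without PreIR-GFP 1). Of the senescence genes, Cdkn2a and Cdkn2b did not pass the filter. Nucleolar genes split 13 above and 11 below 0. Senp3 and Nol9 belong with Pelp1, Tex10, Wdr18 and Las1l to a complex of ribosomal RNA processing, and these partners stood at −0.11, −0.25, −0.52 and 0.07. Polr1b, a subunit of RNA polymerase I, stood at 0.57 without overlap (edgeR adjusted p = 0.244). Of 19 genes of fatty acid metabolism, Cpt1c alone had an unadjusted p under 0.05, and its relatives Cpt1a and Cpt2 stood at 0.12 and −0.19. Heat shock genes lay between −0.24 and 0.37 and immediate early genes had a median of −0.15, which was 0.16 without NonIR 2.

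Markers of neighbouring tissues were low against the products of the gland itself. The 12 skeletal muscle genes summed to 4.11 to 5.23 CPM in NonIR and 3.92 to 217 CPM in PreIR-GFP. Creatine kinase Ckm stood at 43.9 CPM in PreIR-GFP 2 and at most at 2.67 CPM in the other 7 libraries. Adipocyte genes summed to 12.4 to 23.9 CPM in NonIR and 11.9 to 31.4 CPM in PreIR-GFP. Sublingual gland genes summed to 74.2 to 113 and 46.3 to 108 CPM, with the mucin Muc19 at 1.92 to 2.03 CPM in NonIR and 0.396 to 8.05 CPM in PreIR-GFP. Without PreIR-GFP 2, the edgeR test called 1 gene, Tef. Rab27a, Il1rn, Ccdc62 and Gm37795 kept their sign but did not pass. Groups without overlap can hardly change sign when a library is left out.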

How the data were processed

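RNA from submandibular glands was sequenced in 13 libraries (3 NonIR, 5 PreIR-GFP, 5 PreIR-NTN). Per the labels' protocols, SMART-Seq v4 cDNA went through Nextera XT to a NextSeq 500 run. The submitters' processing notes name STAR 2.5.2a, the build GRCm38.p3 (mm10), DESeq2, edgeR and limma; no source used here names the counting tool. The series description names other instruments and aligners, and the labels of each sample were used instead. The authors deposited raw read counts per gene (48709 genes, and 24 transgene and spike-in entries, which held 2.46e-05% of reads and were left out). The authors also deposited a normalised signal table, which on testing was each library's counts times 1 constant. Symbols came from that table.

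The edgeR 4.0.16 quasi-likelihood test (R 4.3.3, robust, TMM, filterByExpr, two-sided, Benjamini-Hochberg over all 14727 genes tested, threshold 0.05) took a mean for each group over all 13 libraries, and the contrast was PreIR-GFP minus NonIR. Standard errors come from the fold change and F statistic. The common dispersion was 0.0700. On simulated data of this design, 81 of 100 genes changed by 2 on the log2 scale and 42 of 100 changed by 1 were recovered, with 8 false calls. The simulation used all 13 libraries and drew those of a group alike, so recovery in the real libraries may be lower. Alternatives were DESeq2 1.42.0, limma 3.58.1 (voom, and trend on the deposited signal with pseudocount 0.5), other scaling and filters, a replicate block, and leaving out libraries. No 2 libraries within NonIR or within PreIR-GFP agreed within sampling noise, and other pairs were not checked. Floors of 3 reads cover counting error only, since PCR reads are not independent molecules.

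Named genes were every gene past the threshold, the 10 higher and 10 lower next to it with a symbol, a mean of at least 1 CPM and no overlap, up to 3 members of lowest p from each of 35 lists, and checks of tissue and label (Nrtn, Aqp5, Egf, Smgc, Chrm3). The members, the lists and the rule were chosen with earlier results of these data known. Other list members, the neighbours of Gm37795 and the promoters printed were chosen after values were seen. Coordinates and overlaps are from GENCODE vM21 (GRCm38) and sequences from RefSeq (GRCm38.p6). Some genes that the rule names, and 1 row of the clock map, are not reported here.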

Additional observations from a re-analysis of the deposited data

Results flagged for a closer look

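Of 155 values examined in the 5 PreIR-GFP libraries, 16 had 1 library far from the other 4. The measure was its gap to the nearest as a share of the range. Chance marks about 1 in 20 only for independent, normally distributed values. Unlogged CPM can be skewed and genes can vary together, so 16 of 155 cannot be set against that rate. The muscle genes Ckm, Ttn and Mylpf were highest in PreIR-GFP 2, at 43.9, 16.8 and 7.79 CPM, against at most 2.67, 0.653 and 1.80 CPM in the other PreIR-GFP libraries. PreIR-GFP 5 was highest for Adgre1 (52.9 CPM), Cxcl13 (4.81 CPM), Ccr7 (4.22 CPM) and Polr1b (40.2 CPM). PreIR-GFP 1 was highest for Sox9 (89.6 CPM), Pmp22 (48.6 CPM), Vip (4.86 CPM) and Canx (421 CPM) and lowest for Nol9 (24.4 CPM). PreIR-GFP 3 was highest for Smr3a (1.95 CPM) and Cst10 (2.502 CPM). PreIR-GFP 4 was highest for Hspa5 (561 CPM) and lowest for Polk (9.24 CPM).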

How the results depend on the processing

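The number of genes called, 5, depended on the setting. DESeq2 called 73 (32 higher, 41 lower) and edgeR without a low-count filter 25, both with all 5. No gene was called by limma-voom (0, with 1126 at an unadjusted p under 0.05), by edgeR with RLE size factors (0 and 1241), with library sizes only (0 and 746) or on only the 8 libraries (0 and 974). Leaving out 1 library at a time gave 0 to 14 calls, with 974 to 1593 at an unadjusted p under 0.05. Without PreIR-GFP 1 and PreIR-GFP 5 together (this alternative was added once the data had been seen), 1 gene was called, none of the 5. The replicate block called 1 gene, none of the 5. The same numbers correlated at 0.247, 0.063 and 0.279 and not every NonIR library correlated best with its own number, so the numbers were not taken as a pairing.

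No named gene with an unadjusted p under 0.05 changed sign. Reversed values were those of Tpsb2 (main −0.01; 0.28 limma-voom, 0.11 library sizes only, 0.11 replicate block, 0.072 deposited signal, −0.42 to 0.90 with 1 library left out), Muc19 (0.68; −0.15 limma-voom, −0.0011 to 0.97 with 1 left out, lowest without PreIR-GFP 3), Bpifb1 (0.04; −0.54 to 5.97 with 1 left out), Ccr7 (0.90; −0.13 replicate block, −0.45 to 1.14 with 1 left out, lowest without PreIR-GFP 5, −0.27 without PreIR-GFP 1 and 5), Chrm3 (−0.16; 0.11 replicate block, −0.30 to 0.0049 with 1 left out), Cfd (0.51; −0.28 to 1.92 with 1 left out, lowest without PreIR-GFP 4), Cd28 (0.45; −0.25 without PreIR-GFP 1 and 5) and Agr2 (−0.32; 0.049 likewise). The causes were not tested. Of 838 list medians under an alternative, 817 moved by less than the SD of the list's per-library medians in PreIR-GFP. Single libraries widen that SD, which was 1.41 for granular tubule products. Their move from −0.65 to −0.09 without PreIR-GFP 1 and 5 thus counted as small. A median can also change sign within that SD, so the count does not show that the medians were stable. The simulated test, fitted on all 13 libraries, missed most changes of 1 on the log2 scale.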
